A study of Mus musculus with 6 samples.

Results

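The alcohol and aldehyde dehydrogenase genes were examined in liver as a set of 10, chosen by gene name and joined to the count table by gene identifier: the alcohol dehydrogenases Adh1, Adh4 and Adh5, and the aldehyde dehydrogenases Aldh1a1, Aldh1a7, Aldh1b1, Aldh2, Aldh3a2, Aldh1l1 and Aldh8a1. All 10 of 20673 genes in the tables were found and all 10 had enough reads to be tested. The study used adult C57BL/6J mice of both sexes, and the sex behind each library is not given. Mice ate regular chow (RD) or, for 3 days, a high-cholesterol diet (HCD). Total RNA of whole liver was sequenced from 3 livers per diet. The HCD carried sodium cholate and more fat along with cholesterol, so the effects of these components cannot be told apart. The comparison asked what the short diet did to liver transcripts.

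Alcohol dehydrogenases oxidise alcohols to aldehydes, and aldehyde dehydrogenases oxidise aldehydes on to acids, both with NAD or NADP as electron acceptor. In the liver the families are best known for clearing ethanol and acetaldehyde, but they also act on retinol and retinal, on formaldehyde held by glutathione or folate, on long-chain fatty aldehydes and on semialdehydes from amino acid breakdown. Many family members are abundant in hepatocytes, the main cell type of the liver.

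The libraries held 13771630 to 23129576 counts (the 3 RD libraries 20160450, 13771630 and 23129576; the 3 HCD libraries 18545549, 14823396 and 13935491). The counts of the 10 genes ran from 331 to 50876 in a library and none was at 0. The library labelled HCD replicate 1 stood apart: it held 5032 counts of Xist, the transcript of the inactive X chromosome, where the other libraries held 0, and it held 0 counts of each of the Y-linked genes Ddx3y, Eif2s3y, Kdm5d and Uty, which were counted in every other library. The summed level of 10 female-biased liver genes was 2570 CPM (counts scaled to a common library total with edgeR's TMM factors) in that library and 0.1442 to 5.905 in the others. The summed level of 10 male-biased genes was 113.1 CPM in that library, against 6060 to 8400 in RD and 5872 and 8471 in the other HCD libraries. The labels give no sex. By these counts HCD replicate 1 had a female pattern and every other library a male one, so sex was not balanced between the diets. Values with and without HCD replicate 1 are therefore given for each of the 10 genes and each gene named as called by edgeR. Hepatocyte markers dominated every library, with a summed level of 87600 to 121800 CPM in RD and 100800 to 140900 in HCD over 10 genes. The summed levels of markers of other cells were low but above 0 in every library, and single markers were at 0 in some libraries. The 8 Kupffer cell markers summed to 133.7 to 220.5 CPM in RD and 173.8 to 411.6 in HCD. Of their log2 fold changes 8 of 8 were above 0, with a median of 0.86, and none was called by edgeR. Before adjustment 3 were higher (p at or under 0.05 by edgeR), beside 20.9% of all genes in either direction. DESeq2 called 2 higher, beside 4.01% of all genes it tested. The 5 red blood cell markers summed to 137.7 to 238.8 CPM in RD and 176.5 to 467.7 in HCD, and 2 of them rose, Hbb-bs by 2.28 (adjusted p = 0.0223 by edgeR) and Hba-a1 by 2.41 (adjusted p = 0.0217), with values of 2.53 and 2.70 without HCD replicate 1. DESeq2 called 3 of the 5 higher. Over all genes each tool tested, edgeR called 1.95% higher and DESeq2 4.01%. Alas2, the most abundant of the 5 in RD, was at -0.70 (edgeR adjusted p = 0.612) with 8.239 CPM in HCD replicate 1. Both globin calls were lost without RD replicate 1, RD replicate 2 or HCD replicate 3. No endothelial, stellate, cholangiocyte or leukocyte marker was called by edgeR or DESeq2. Before adjustment (p at or under 0.05 by edgeR) 2 of 9 stellate markers, Dcn and Hand2, were higher. That share is close to the 20.9% of all genes in either direction. The part of these cells in the values of the 10 genes was not tested, and in bulk tissue fewer cells of a type and less RNA per cell cannot be told apart.

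None of the 10 dehydrogenase genes was called higher or lower with HCD. The test was edgeR's quasi-likelihood test on counts with Benjamini-Hochberg adjustment over 13105 genes, and a call was an adjusted p under 0.05. The background was 428 genes called of 13105, or 3.27% (1.95% higher and 1.32% lower). Adh1 and Aldh3a2 came closest, with levels 1.69-fold and 1.76-fold higher in HCD and adjusted p = 0.0876 and 0.0793. These 2 genes were also the ones of the 10 whose p before adjustment was at or under 0.05, against 20.9% of all genes tested, and the 2 that DESeq2 called higher, against 4.01% of the genes it tested. Without a filter on low counts edgeR called the same pair higher, against 1.76% of genes. For 2 of the 10 genes (20%) all livers of one diet lay above all of the other, a share below the 27.6% found over all genes tested. The log2 fold change was above 0 for 4 and below 0 for 6, with a median of -0.12 beside 0.01 for all genes tested.

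**Figure D1:**
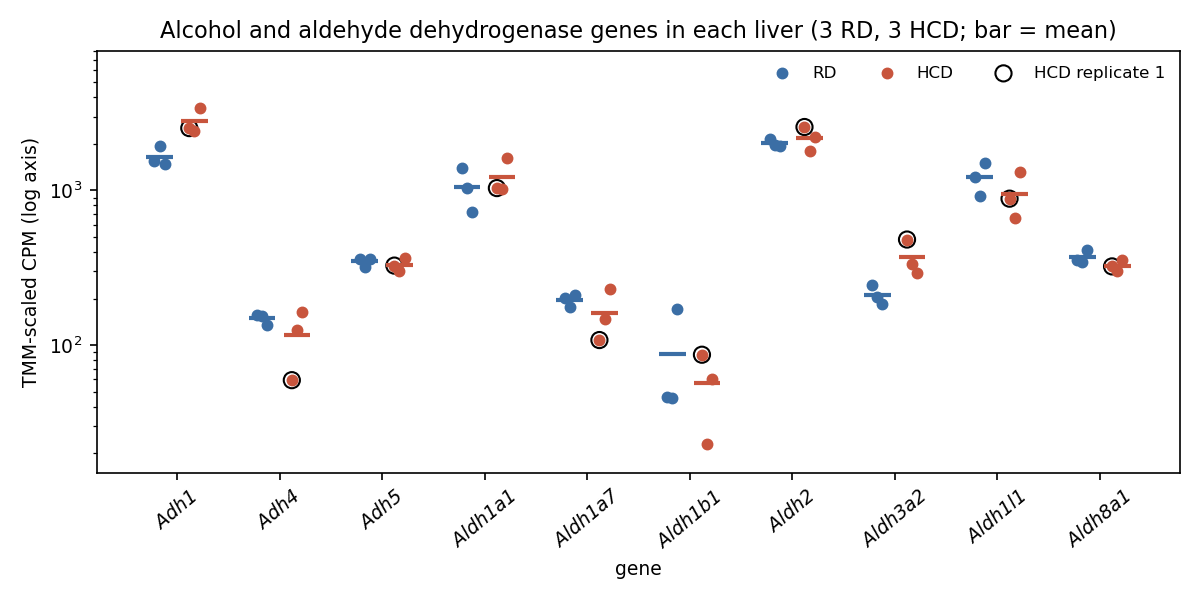
Level of each of the 10 genes in each liver, in TMM-scaled CPM on a log axis, with blue points for RD, red points for HCD, bars for the means of 3 livers and a black ring around HCD replicate 1. The points of the diets separate for Adh1 and Aldh3a2 and overlap for the other 8 genes.

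Levels between genes were compared per length, as FPKM, fragments scaled by gene length and library total. Adh1 had the highest mean over the 6 livers, 1472 FPKM with a range of 996.5 to 2308. Aldh2 followed at 607.4 FPKM (506.4 to 756.5), then Aldh1l1 at 354.7 (212.2 to 499.9) and Aldh1a1 at 340.2 (218.9 to 492.3). Below them lay Adh4 at 134.2 FPKM, Aldh1a7 at 127.6, Aldh8a1 at 117.2, Adh5 at 92.54, Aldh3a2 at 76.44 and Aldh1b1 at 46.51. Of the 9 neighbouring pairs in this order, 3 had ranges that did not overlap: Adh1 over Aldh2, Aldh2 over Aldh1l1 and Aldh1a1 over Adh4. The ranges of the other 6 pairs overlapped. Within these, Aldh8a1 lay above Adh5 in 6 of 6 livers, although their ranges touched. Aldh1l1 lay above Aldh1a1 in 1 of 6 livers, RD replicate 3, so the order of their means rests on that liver. The upper gene of each remaining pair was the higher in 4 or 5 of 6 livers. The order of the means of Adh5 and Aldh3a2 differed by diet, with 93.98 and 54.79 FPKM in RD and 91.1 and 98.09 FPKM in HCD. In the HCD livers Adh5 was at 91.14, 81.09 and 101.1 FPKM and Aldh3a2 at 129.3, 86.36 and 78.6. The HCD order thus leans on HCD replicate 1, and HCD replicate 3 had the order of the RD means.

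Adh1 encodes the class I enzyme that does most of the ethanol oxidation of the liver and also oxidises retinol. Its level was 1540, 1935 and 1489 CPM in the 3 RD livers and 2530, 2432 and 3436 CPM in the 3 HCD livers. Every HCD liver lay above every RD liver, and HCD replicate 3 was the highest. The means were 1655 ± 244.1 CPM in RD and 2799 ± 553.9 CPM in HCD (SD, n = 3 each), a log2 fold change of 0.76 with a standard error of 0.20 and a 95% interval of 0.29 to 1.23. The edgeR test left it uncalled (adjusted p = 0.0876), while DESeq2 called it higher (adjusted p = 0.00188). The DESeq2 call was lost without RD replicate 1 (adjusted p = 0.0535). Without HCD replicate 1 the log2 fold change was 0.83 (edgeR adjusted p = 0.0784). An exact two-sided permutation test of 3 livers against 3 gave p = 0.1, the smallest p this design allows.

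The 150 bases before the start site of Adh1 (RefSeq, GRCm38.p6, chr3:138277435-138277584, plus strand) are shown because Adh1 was the most abundant of the 10 and 1 of the 2 nearest to a call. Of 6 motifs searched on both strands (the E-box CACGTG, the CCAAT box, the TATA box TATAAA, the GC box GGGCGG, the nuclear receptor half-site AGGTCA and the octamer ATGCAAAT), none was in this stretch, so it holds no capitals.
Adh1: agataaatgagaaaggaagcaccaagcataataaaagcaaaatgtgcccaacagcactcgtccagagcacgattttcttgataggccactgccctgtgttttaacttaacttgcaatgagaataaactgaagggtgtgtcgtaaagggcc

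Adh4, the class II enzyme, oxidises retinol and larger alcohols. It was at 156.4, 154.5 and 135.5 CPM in RD and at 59.39, 126.0 and 162.6 CPM in HCD. The RD livers lay close together, whereas the HCD livers spread 2.74-fold, from the lowest value of all in HCD replicate 1 to the highest in HCD replicate 3. The log2 fold change was -0.36 with a 95% interval of -1.07 to 0.35 (adjusted p = 0.544). It was -0.04 without HCD replicate 1 and -0.69 without HCD replicate 3, the lowest and highest of the HCD livers, and neither was called. The coefficient of variation was 7.74% in RD and 45.1% in HCD.

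Adh5, the class III enzyme, oxidises formaldehyde bound to glutathione and is expressed in most tissues. It was at 360.2, 319.2 and 363.2 CPM in RD and at 326.8, 303.2 and 364.5 CPM in HCD, so the diets overlapped over most of their range. Its log2 fold change was -0.07 with a 95% interval of -0.40 to 0.26 (adjusted p = 0.824), which bounds the fold at 0.76 to 1.2, and it was -0.06 without HCD replicate 1 and between -0.15 and -0.01 with each liver left out in turn. The coefficient of variation was 7.07% in RD and 9.33% in HCD.

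Among the 3 alcohol dehydrogenases, Adh1 made up 79.8%, 84.0% and 80.6% of the summed FPKM in the RD livers and 91.8%, 88.4% and 89.6% in the HCD livers. Each HCD liver had a higher Adh1 share than each RD liver (81.5 ± 2.2% against 89.9 ± 1.72%, SD, n = 3 each).

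Aldh1a1 encodes a cytosolic enzyme that turns retinal into retinoic acid and also oxidises aldehydes from lipid peroxidation. Its level was 1391, 1043 and 722.7 CPM in RD and 1036, 1023 and 1620 CPM in HCD. The highest liver was HCD replicate 3 and the lowest RD replicate 3, and the other 4 lay between, from both diets. HCD over RD gave a log2 fold change of 0.22 with a 95% interval of -0.42 to 0.86 (adjusted p = 0.696), 0.33 without HCD replicate 1, 0.47 without RD replicate 1, and it turned to -0.04 without HCD replicate 3.

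Aldh1a7 is the rodent neighbour and close relative of Aldh1a1 on chromosome 19. It was at 203.0, 175.3 and 210.1 CPM in RD and at 107.9, 146.6 and 230.5 CPM in HCD. HCD replicate 1 was the lowest liver and HCD replicate 3 the highest, with the RD livers between HCD replicate 2 and HCD replicate 3. Its log2 fold change was -0.28 with a 95% interval of -0.86 to 0.30 (adjusted p = 0.569) and -0.06 without HCD replicate 1. Without HCD replicate 3 DESeq2 called it lower, with a log2 fold change of -0.64 and an adjusted p of 0.034, and edgeR gave -0.63 without calling it (adjusted p = 0.151).

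The transcripts of Aldh1a1 and Aldh1a7 aligned over 2069 bases at 88.9% identity, and their longest exact shared run was 100 bases. The sources used here do not say how reads that match both were counted, so the counts of both genes are uncertain to the extent that such reads were split between them. The 150 bases before their start sites (RefSeq, GRCm38.p6) are printed to show how close the pair is outside the transcripts too. The stretch of Aldh1a1, which has 2 windows in the table, is chr19:20601818-20601967 on the plus strand and that of Aldh1a7 is chr19:20727557-20727706 on the minus strand. Capitals mark the longest run the pair shares, 65 bases beginning 94 bases before each start site, and the run includes the octamer ATGCAAAT.
Aldh1a1: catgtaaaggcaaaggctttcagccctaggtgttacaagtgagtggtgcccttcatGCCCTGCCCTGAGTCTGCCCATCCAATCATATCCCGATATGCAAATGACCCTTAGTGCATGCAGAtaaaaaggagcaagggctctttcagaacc
Aldh1a7: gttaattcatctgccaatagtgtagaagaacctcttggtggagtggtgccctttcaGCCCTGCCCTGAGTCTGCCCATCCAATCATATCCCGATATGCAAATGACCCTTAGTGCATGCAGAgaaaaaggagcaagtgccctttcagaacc

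Aldh2 is the mitochondrial enzyme that clears acetaldehyde made from ethanol. Its level was 2165, 1958 and 1942 CPM in RD and 2571, 1795 and 2232 CPM in HCD. The RD livers lay inside the HCD range, with HCD replicate 1 at the top and HCD replicate 2 at the bottom. Its log2 fold change was 0.12 with a 95% interval of -0.30 to 0.54 (adjusted p = 0.749), and it was -0.01 without HCD replicate 1 and 0.24 without HCD replicate 2.

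Aldh1b1 encodes another mitochondrial enzyme that accepts acetaldehyde and retinal. It was at 46.19, 45.49 and 170.2 CPM in RD and at 86.73, 22.82 and 60.46 CPM in HCD. RD replicate 3 stood far above the other 5 livers and HCD replicate 2 was the lowest, so the diets overlapped widely. Its spread within a diet was the widest of the 10 genes, with a coefficient of variation of 82.2% in RD and 56.7% in HCD. The log2 fold change was -0.62 with a 95% interval of -1.98 to 0.73 (adjusted p = 0.589), -1.07 without HCD replicate 1, and it turned to 0.30 without RD replicate 3.

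Aldh3a2 encodes the fatty aldehyde dehydrogenase of the endoplasmic reticulum, the enzyme lost in Sjögren-Larsson syndrome, which oxidises long-chain aldehydes from fatty alcohols, sphingolipids and ether lipids. Its level was 244.1, 204.4 and 184.2 CPM in RD and 481.7, 335.5 and 294.5 CPM in HCD. All HCD livers were above all RD livers, HCD replicate 1 being the highest and the gap between the diets lying between RD replicate 1 and HCD replicate 3. The means were 210.9 ± 30.48 CPM in RD and 370.6 ± 98.41 CPM in HCD (SD, n = 3 each), a log2 fold change of 0.81 with a standard error of 0.21 and a 95% interval of 0.33 to 1.30. The edgeR test left it uncalled (adjusted p = 0.0793) and DESeq2 called it higher (adjusted p = 0.00304). The DESeq2 call was lost without RD replicate 2 (adjusted p = 0.0614). Without HCD replicate 1 the log2 fold change was 0.58 (edgeR adjusted p = 0.11, DESeq2 adjusted p = 0.0323). The exact two-sided permutation test gave p = 0.1, again the smallest the design allows.

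The 150 bases before the start site of Aldh3a2 (RefSeq, GRCm38.p6, chr11:61267187-61267336, minus strand) are shown because it was the other gene nearest to a call. They are richer in G and C than those of Adh1, 60.7% against 42.7%. Capitals mark the motif matches: the GC box GGGCGG beginning 47 bases before the start, the E-box CACGTG 30 bases before it and the CCAAT box 13 bases before it.
Aldh3a2: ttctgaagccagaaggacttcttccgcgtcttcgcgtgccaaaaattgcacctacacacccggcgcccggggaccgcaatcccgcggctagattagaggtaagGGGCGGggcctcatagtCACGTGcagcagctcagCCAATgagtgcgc

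Aldh1l1 encodes the cytosolic folate enzyme that oxidises 10-formyltetrahydrofolate. Its level was 1226, 915.2 and 1510 CPM in RD and 885.0, 662.6 and 1309 CPM in HCD. The livers of both diets were interleaved, with RD replicate 3 the highest and HCD replicate 2 the lowest. HCD over RD gave a log2 fold change of -0.35 with a 95% interval of -0.995 to 0.29 (adjusted p = 0.508) and -0.30 without HCD replicate 1. It was -0.16 without HCD replicate 2, -0.17 without RD replicate 3, -0.53 without RD replicate 2 and -0.66 without HCD replicate 3, the last with an adjusted p of 0.239 by edgeR, and it was called in none of these fits.

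Aldh8a1 encodes a cytosolic enzyme that oxidises 2-aminomuconate semialdehyde in tryptophan breakdown. It was at 354.9, 346.2 and 411.2 CPM in RD and at 322.9, 303.5 and 355.2 CPM in HCD. The diets overlapped only in that HCD replicate 3 lay just above RD replicates 1 and 2. HCD over RD gave a log2 fold change of -0.18 with a 95% interval of -0.51 to 0.15 (adjusted p = 0.515) and -0.17 without HCD replicate 1. With each liver left out in turn it ran from -0.25 to -0.10.

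The 150 bases before the start of Aldh8a1 (RefSeq, GRCm38.p6, chr10:21377150-21377299, plus strand) are shown because they hold the octamer ATGCAAAT in capitals, beginning 58 bases before the start site.
Aldh8a1: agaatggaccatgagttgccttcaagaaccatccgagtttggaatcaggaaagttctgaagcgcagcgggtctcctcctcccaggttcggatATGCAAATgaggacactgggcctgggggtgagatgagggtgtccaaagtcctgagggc
The 250 bases before each start were searched on both strands. The octamer was found for 3 of the 9 genes with a window (Aldh1a1, Aldh1a7 and Aldh8a1) and in 1.6% of 32851 windows of the same length. The matches of Aldh1a1 and Aldh1a7 lie in the 65-base run that the pair shares and are not separate. Aldh1a1 and Adh5 have 2 windows each, so these counts of genes are not like measures to the shares of windows. The CCAAT box was found for 5 of the 9 genes and in 33.8% of windows, and the GC box for 4 and in 32.7%. The TATA box TATAAA and the half-site AGGTCA were each found for 2 genes and in 12.4% and 14% of windows, and the E-box for 1 gene and in 6.0%. These matches describe the letters of the windows and are not evidence of binding.

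**Figure D2:**
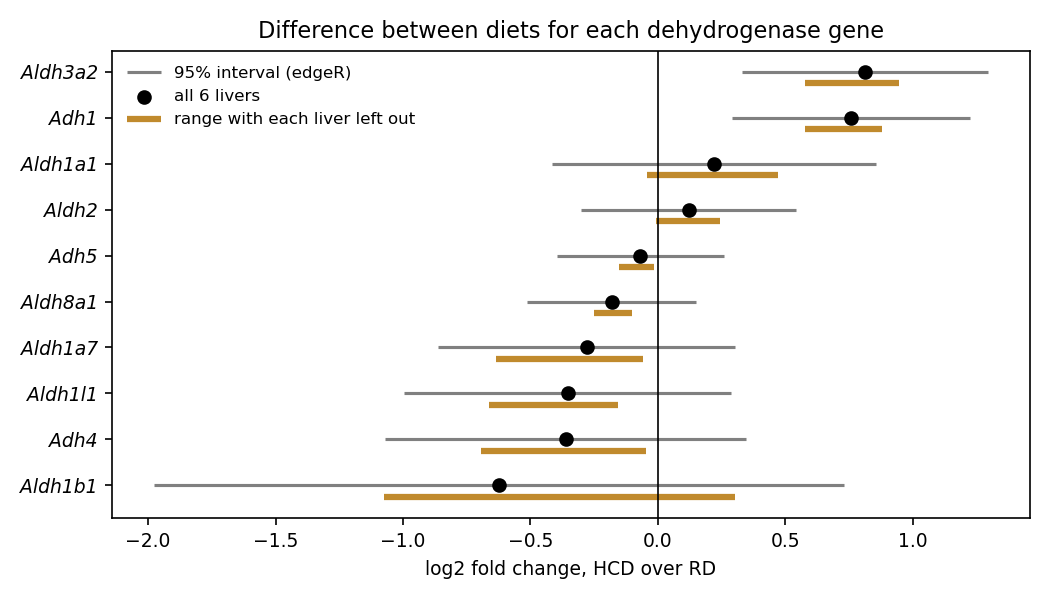
Log2 fold change of HCD over RD for each gene (black points), with the approximate 95% interval derived from the edgeR test (grey lines). Ochre bars give the range of the estimate when each of the 6 livers was left out in turn. The intervals of Adh1 and Aldh3a2 lie above 0 before adjustment over all genes, and the ochre bars of Aldh1a1, Aldh2 and Aldh1b1 cross 0.

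With TMM scaling HCD replicate 3 lay above the mean of the 6 livers for 10 of 10 genes on the log2 scale. That count rests on the scaling, which shifts all genes of a library alike, and was 5 of 10 with library sizes alone. On the TMM scale it was higher by 0.69 for Adh1 and 0.55 for Aldh1a1 but by 0.03 for Aldh1b1 and Aldh8a1. HCD replicate 1 combined the lowest Adh4 (1.08 below the mean, a deviation of -1.08) and Aldh1a7 (-0.68) with the highest Aldh3a2 (0.80) and Aldh2 (0.29). HCD replicate 2 was the lowest liver for Adh5, Aldh1b1, Aldh2, Aldh1l1 and Aldh8a1. HCD replicate 3 had the lowest TMM factor, 0.8863, against 0.9796 to 1.073 in the other libraries.

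**Figure D3:**
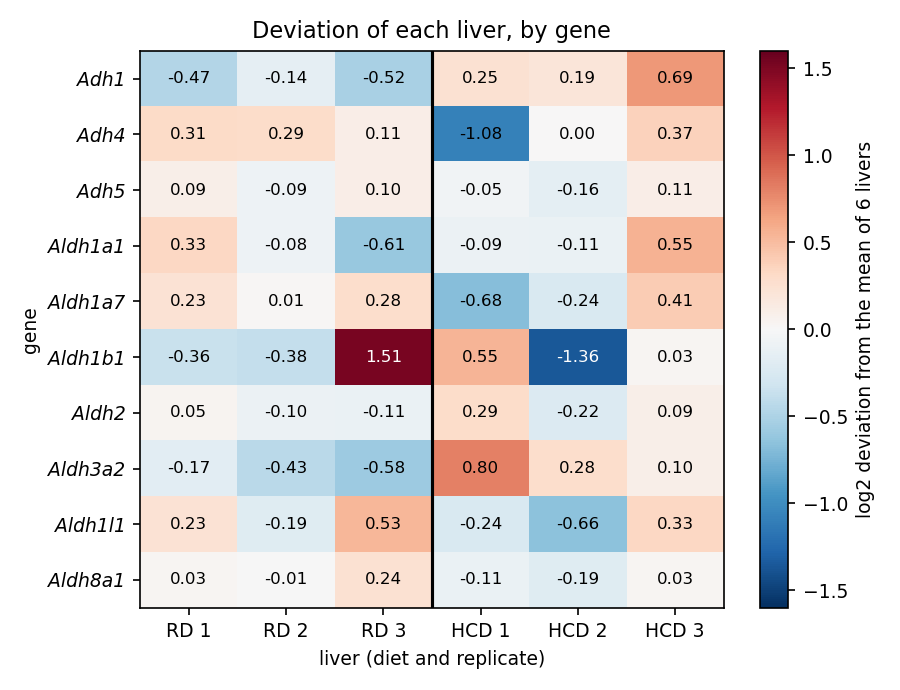
Heat map of the log2 deviation of each liver (columns, RD then HCD) from the mean of the 6 livers for each gene (rows), with the value printed in each cell and red for above and blue for below the mean. The widest deviations are those of Aldh1b1 in RD replicate 3 (1.51) and HCD replicate 2 (-1.36).

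Ratios of related genes within a liver do not depend on how libraries are scaled, and 4 were compared. The log2 ratio of Adh4 to Adh1 was -3.30, -3.65 and -3.46 in RD and -5.41, -4.27 and -4.40 in HCD. Every HCD liver was below every RD liver, and the difference was -1.23, or -0.87 without HCD replicate 1. The log2 ratio of Adh5 to Adh1 was -2.10, -2.60 and -2.04 in RD and -2.95, -3.00 and -3.24 in HCD, again without overlap, a difference of -0.82. The log2 ratio of Aldh1a7 to Aldh1a1 was -2.78, -2.57 and -1.78 in RD and -3.26, -2.80 and -2.81 in HCD. The diets of this last pair were parted only by the small gap between RD replicate 1 and HCD replicate 2, with a difference of -0.58 that was -0.28 without RD replicate 3. Each of these 3 ratios had p = 0.1 by the exact two-sided permutation test, the smallest possible with 3 against 3, and 0.133 after adjustment over the 4 ratios. The log2 ratio of Aldh1b1 to Aldh2 overlapped between the diets, with a difference of -0.63 (exact permutation p = 0.6), and turned to 0.02 without RD replicate 3. The first 2 ratios share Adh1 as the denominator and are not separate evidence.

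**Figure D4:**
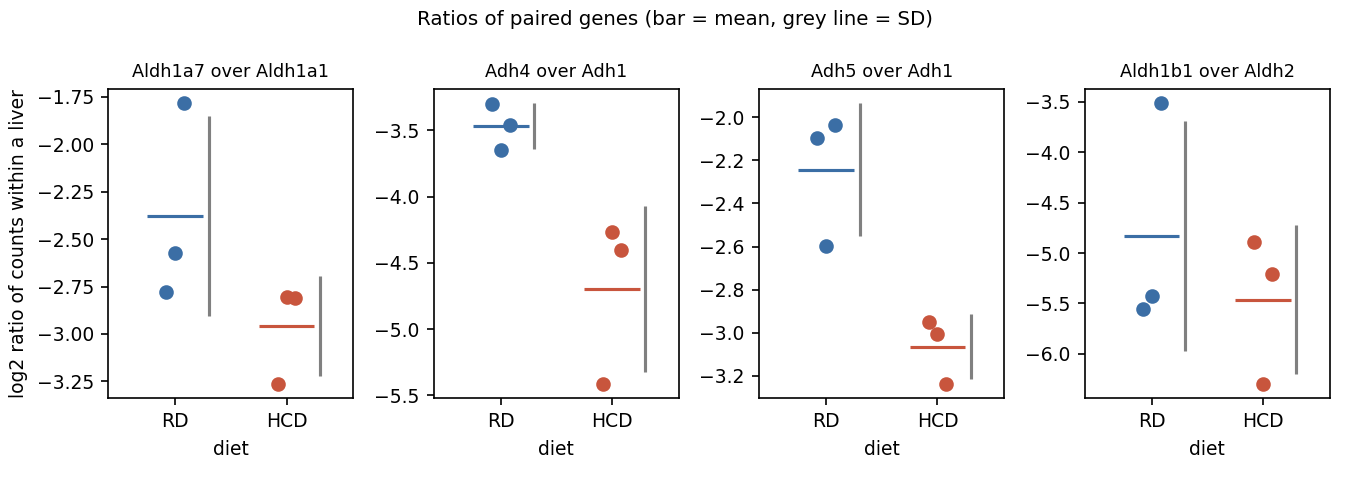
Log2 ratio of counts of 2 genes within each liver, by diet, for the 4 ratios, with coloured bars for the means and grey lines for 1 SD either side. The diets do not overlap for the first 3 ratios and overlap for Aldh1b1 over Aldh2.

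A list of further ADH and ALDH genes had 15 members in the tables, of which 10 were tested. None of the 10 was called by edgeR or DESeq2 or had a p before adjustment at or under 0.05, with a median log2 fold change of -0.08. The most abundant were Aldh7a1 (lysine breakdown) at a mean of 145.3 FPKM, Aldh6a1 (valine breakdown) at 93.97 and Aldh9a1 (carnitine synthesis) at 90.83, with log2 fold changes of -0.12, -0.10 and -0.17.

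Related enzymes, in 6 lists that held 96 tested genes, had 7 called by edgeR (7.29%) beside the 3.27% called over all genes, 4 higher and 3 lower. In the retinoid list, 1 of 23 tested genes rose and 2 fell. Rdh11, a retinal reductase of the endoplasmic reticulum, fell, with a log2 value of -1.50 (adjusted p = 0.0130), and -1.42 without HCD replicate 1, and the call was lost without RD replicate 1. The retinoid X receptors went both ways, Rxra falling by 0.68 (adjusted p = 0.0449) and Rxrg rising by 1.31 (adjusted p = 0.0299), and both calls were lost when any 1 of the 6 livers was left out. Without HCD replicate 1 the values were -0.63 and 1.35. The median of the retinoid list was 0.15.

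Of the 6 tested genes of ethanol and acetate use, Acss2, the cytosolic enzyme that makes acetyl-CoA from acetate, fell by 1.48 (edgeR adjusted p = 0.0193), a call lost without RD replicate 1 or HCD replicate 3, and was at -1.47 without HCD replicate 1. DESeq2 called 3 of the 6 lower, Acss2, Acly and Aacs, where 3.19% of all genes it tested were called lower. The name of the list is loose, since Acly and Aacs do not use ethanol or acetate as substrate. The median of the list was -0.66. The ethanol oxidase Cyp2e1 and the catalase gene Cat were at 0.17 and -0.18 and were not called. None of the 22 formaldehyde and folate genes was called by either tool, and the 4 that were higher before adjustment (0 lower) were no larger a share than the 20.9% over all genes. The median of that list was 0.01. None of the 14 tryptophan and kynurenine genes was called by edgeR, and the 3 that were lower before adjustment were a share close to the same 20.9%. DESeq2 called 2 of the 14 lower, beside 3.19% of all genes, and the median was -0.24.

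A list of fatty aldehyde sources, ether lipid enzymes and other lipid enzymes had 10 tested genes. Of these, Hacl1, the peroxisomal lyase that makes a fatty aldehyde from phytanic acid, rose by 1.38 (adjusted p = 0.0458). That call was lost when any 1 liver was left out, and the value was 1.00 without HCD replicate 1. Its level was 19.95, 21.28 and 31.43 CPM in RD and 92.80, 51.29 and 45.47 CPM in HCD, and HCD replicate 1 was the highest liver for Hacl1 as for Aldh3a2. The median of that list was -0.07.

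Of 21 tested aldo-keto and carbonyl reductases 2 rose and none fell, beside 1.95% higher and 1.32% lower over all genes. Cbr1, the main cytosolic carbonyl reductase, rose by 1.40 (adjusted p = 0.0130), or 1.27 without HCD replicate 1, and its call was lost without RD replicate 1 or RD replicate 2. Dhrs7, a reductase of the endoplasmic reticulum, rose by 1.08 (adjusted p = 0.0310), or 0.91 without HCD replicate 1, with the call kept in 1 of 6 fits with a liver left out, that without HCD replicate 2. DESeq2 called 2 higher and 1 lower, beside 4.01% higher and 3.19% lower over all genes it tested, and the median of the list was 0.20.

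Genes of the liver zones gave 1 edgeR call in 24 tested, beside 3.27% over all genes. None of 12 pericentral genes was called by edgeR, but 1 was higher before adjustment (20.9% of all genes in either direction) and DESeq2 called 1 higher (4.01% of all genes), with a median of -0.17. Of 12 periportal genes, Hsd17b13, a lipid droplet protein, rose by 0.79 (adjusted p = 0.0400), or 0.70 without HCD replicate 1, with the call kept only without HCD replicate 2, and the median was 0.17. Before adjustment 2 of the 12 were higher, and DESeq2 called 2 higher. Among 10 hepatocyte markers Cyp3a11 rose by 1.06 (adjusted p = 0.0329), or 1.11 without HCD replicate 1, and the call was lost without RD replicate 1, RD replicate 2, HCD replicate 2 or HCD replicate 3. DESeq2 called 3 of these 10 higher (4.01% of all genes it tested), Cyp3a11, Ttr and Trf. The same 3 were higher before adjustment (20.9% of all genes in either direction), and the median was -0.03.

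**Figure D5:**
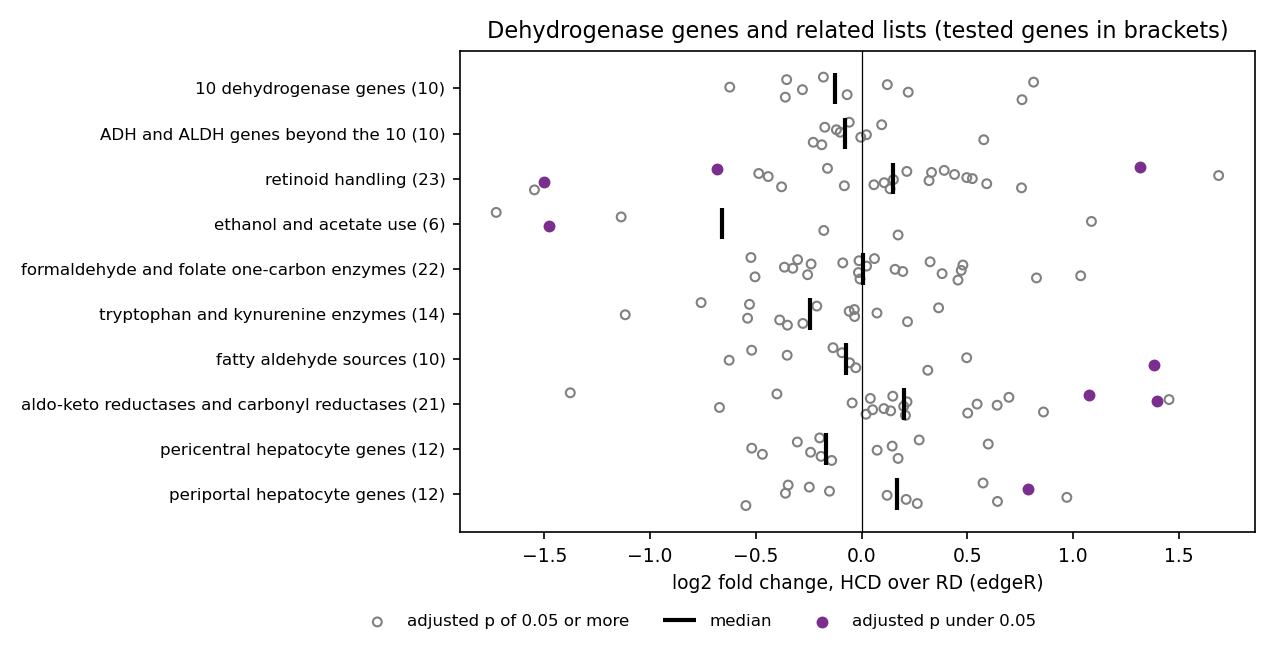
Log2 fold change of HCD over RD for each tested gene of the 10 dehydrogenase genes and of 9 related lists, with black bars for the medians, open circles for genes not called by edgeR and filled purple circles for genes called. The 10 dehydrogenase genes hold no filled circle, and the filled circles of the other lists number 8.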

How the data were processed

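Liver RNA of 3 RD and 3 HCD mice was sequenced, and libraries were grouped by the diet in their titles. The authors deposited whole-number read counts per gene and FPKM values. The submitters' processing notes list STAR, HTSeq, DESeq2, edgeR and GRCm39, and the annotation, the strand setting and the treatment of reads matching several genes are not given in the sources used here. Columns of the deposited tables with the authors' own log2 fold changes and p-values for HCD against RD were not used. Counts, FPKM and the exon lengths of GENCODE M21 fitted a per-million total of 59.0% to 72.6% of the table's counts, so the FPKM were not scaled to those counts. Unstranded counting could mix a gene with one that overlaps its exons; such genes had at most 57 counts in a library (Gm16559, antisense to Adh1).

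Counts were tested with edgeR 4.0.16 in R 4.3.3 (quasi-likelihood F test, two-sided, TMM factors, filterByExpr, Benjamini-Hochberg adjustment over 13105 genes, threshold 0.05), after a test on simulated data. CPM were TMM-scaled, the biological coefficient of variation was 27.75%, and intervals are those of the fit. Within-liver ratios were compared by an exact permutation test. DESeq2 1.42.0, limma 3.58.1 on log2(FPKM + 1) computed from the deposited FPKM, other scalings, filters and left-out libraries were alternatives. Every one of the 10 genes is named. From the other lists up to 3 called genes are named by absolute fold change, plus the 3 most abundant further ADH and ALDH genes. Cyp2e1, Cat, Acly, Aacs, Dcn, Hand2, Alas2, Ttr and Trf were added after their values were seen. The 10 genes and the lists were chosen with earlier results of these data known. The study gives 3 mice per diet; sex is not given per library. Upstream sequences are RefSeq's for GRCm38.p6, not the build of the counts; 9 of the 10 genes matched, and Aldh2 did not.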

Additional observations from a re-analysis of the deposited data

How the results depend on the processing

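With 3 livers per diet, leaving out 1 library took the calls over all genes from 428 to between 36 (without RD replicate 1) and 335 (without HCD replicate 1). The number of dehydrogenase genes called higher went from 0 to 2 with DESeq2, with no filter on low counts (Adh1 adjusted p = 0.0459 and Aldh3a2 adjusted p = 0.0444 by edgeR) and with p taken before adjustment (at or under 0.05), and to between 1 and 2 in DESeq2 fits that left out 1 library, which were chosen after seeing the data. It was 1 without RD replicate 1, where Adh1 was lost, and 1 without RD replicate 2, where Aldh3a2 was lost. The number called lower was 0 to 1 in those fits, the 1 being Aldh1a7 without HCD replicate 3. In edgeR fits with 1 library left out, the number called stayed at 0 in each direction. None of the 10 genes was called in the main fit, so no alternative could lose a call. Of 200 values of the 10 genes under alternatives, 177 kept direction and stayed uncalled, 15 passed the threshold and 8 changed sign. The cause was not tested. The sign changes were Adh5 with the length trend removed (0.0104), Aldh1a1 by DESeq2 without RD replicate 3 (-0.0099) and HCD replicate 3 (-0.0435), Aldh1b1 by DESeq2 without RD replicate 3 (0.287), Aldh2 by DESeq2 without HCD replicate 1 (-0.0191) and, by edgeR, Aldh1a1 without HCD replicate 3, Aldh1b1 without RD replicate 3 and Aldh2 without HCD replicate 1. With 1 library left out, edgeR gave Aldh1a1 -0.0416 to 0.4704, Aldh1b1 -1.0741 to 0.3043 and Aldh2 -0.0062 to 0.2424. The difference in the ratio of Aldh1b1 to Aldh2 ran from -0.9945 to 0.0246 with 1 library left out, the latter without RD replicate 3.

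The labels give both diets replicate numbers 1 to 3, but nothing says that these pair the livers, and deviations of same-numbered livers correlated at -0.08, 0.09 and -0.04. With the replicate number as a block, 0 of the 10 genes were called higher and 0 lower, with Adh1 at 0.75 (adjusted p = 0.142) and Aldh3a2 at 0.79 (adjusted p = 0.0663) by edgeR, and the block changed no call.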

Other observations

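Adh6-ps1, a pseudogene of the alcohol dehydrogenase family that was in no list and was picked after its values were seen, was at 81.90, 61.11 and 35.47 CPM in RD and at 5.05, 45.15 and 12.97 CPM in HCD. HCD replicates 1 and 3 lay below all RD livers and HCD replicate 2 lay among them. The log2 fold change was -1.50 with a standard error of 0.67 (edgeR adjusted p = 0.246, DESeq2 adjusted p = 0.361), and -1.03 without HCD replicate 1.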
